A study of Mus musculus with 45 samples.

Results

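The comparison described here sets the kidney tubules of 8 female mice in which both copies of Pkd1 were deleted (Pkd1KO) against those of 7 female mice that kept a working copy (noncystic). These are 15 of the 45 libraries of the series, chosen by sex and genotype label. All 15 mice carried Pax8rtTA, TetOCre and RosaEGFP-Rpl10a. Doxycycline from postnatal day 28 to 42 switched on Cre in tubule cells, which recombined the floxed Pkd1 and turned on a GFP-tagged ribosomal protein, L10a, in the same cells. The kidneys were taken at postnatal day 49, an age of 7 weeks. Pkd1KO mice were Pkd1fl/fl and noncystic mice were Pkd1fl/+, so the control tubules, labelled wild type, had also lost 1 copy of Pkd1. Each library bears a mouse number of its own and holds RNA bound to the tagged ribosomes, so a level is that of ribosome-bound RNA in whichever segments expressed Pax8. The question was which translated RNAs differ in tubule cells that have lost polycystin-1.

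Pkd1 encodes polycystin-1, a very large membrane protein that forms a complex with the channel polycystin-2, the product of Pkd2, and both are found in the primary cilium. Loss of either protein from tubule cells gives autosomal dominant polycystic kidney disease, in which tubules widen into cysts lined by dividing cells. In mice, removal of cilia slows this growth, so gene products that change with Pkd1 while cilia are present are of interest as parts of a signal from the cilium. Glis2, a zinc finger transcription factor related to the GLI proteins of the hedgehog pathway, is itself a disease gene for nephronophthisis, a kidney disease of cilia.

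The libraries held 80874556 to 132958186 counts each, with a median of 98223527 in noncystic and 102451301 in Pkd1KO mice. Of 55401 genes counted, 15968 protein-coding genes were tested, and these took 98.7% to 99.1% of the counts. Levels below are normalized CPM, counts scaled to the size of each library, which compare a gene between groups but not one gene with another. A gene was called when its adjusted p in edgeR's quasi-likelihood test was at most 0.05. The principal components that took 20%, 16% and 10.9% of the variance left the groups overlapping.

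The deletion was checked first. Pkd1, counted over the whole gene on chromosome 17 (24549834 to 24596508, GRCm38), had 46.7, 53.3 and 65.4 CPM as the lowest, median and highest noncystic values, and 34.3, 41.4 and 62.9 CPM in Pkd1KO. Pkd1KO replicates 3, 4 and 7 lay among or above most noncystic libraries at 60.3, 62.9 and 54.9 CPM, and the other 5 lay under all 7 noncystic ones at 34.3 to 43.3 CPM. The log2 fold change was -0.22 (SE 0.128, adjusted p = 0.418) and was not called, so the whole-gene level does not check the labels of those 3 libraries. Of the exon bases of Pkd1, 7.6% also belong to Tsc2, which was not called either.

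Kif3a, which encodes a motor subunit needed to build cilia, was intact by label in both groups. Its level was 24.0 to 26.1 CPM in 6 noncystic libraries and 24.4 to 29.4 CPM in Pkd1KO, but 6.93 CPM in the library labelled noncystic replicate 5. On a scale set over all 21 female libraries the latter stood at 7.02 CPM, and 5 of the 6 libraries labelled for loss of Pkd1 and Kif3a together (Pkd1fl/fl with Kif3afl/fl) stood at 6.86 to 8.83 CPM. The sixth of that group stood at 21.6 CPM. The level of Kif3a therefore goes against the label of noncystic replicate 5, and the main counts are given with and without this library.

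The test called 533 of 15968 genes, 3.34% of those tested, with 322 higher in Pkd1KO (2.02%) and 211 lower (1.32%). Most changes were small. The median size among called genes was 0.49 on the log2 scale, 75 were at least 1, and 276 were under 0.5. Over all genes tested the median log2 fold change was -0.00083. Among genes over 100 CPM, 92 of 2535 were called with a median size of 0.32, and among genes under 1 CPM, 56 of 3145 were called with a median size of 1.23. In 179 genes (1.12%) no Pkd1KO library overlapped a noncystic one, and 173 of these were called. Without the library labelled noncystic replicate 5, 558 genes were called (3.49%), of which 457 were among the 533 and 0 had turned direction. Since RNA was bulked over all tagged cells of a kidney, fewer cells of a type and less RNA per cell cannot be told apart in any value here.

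**Figure D1:**
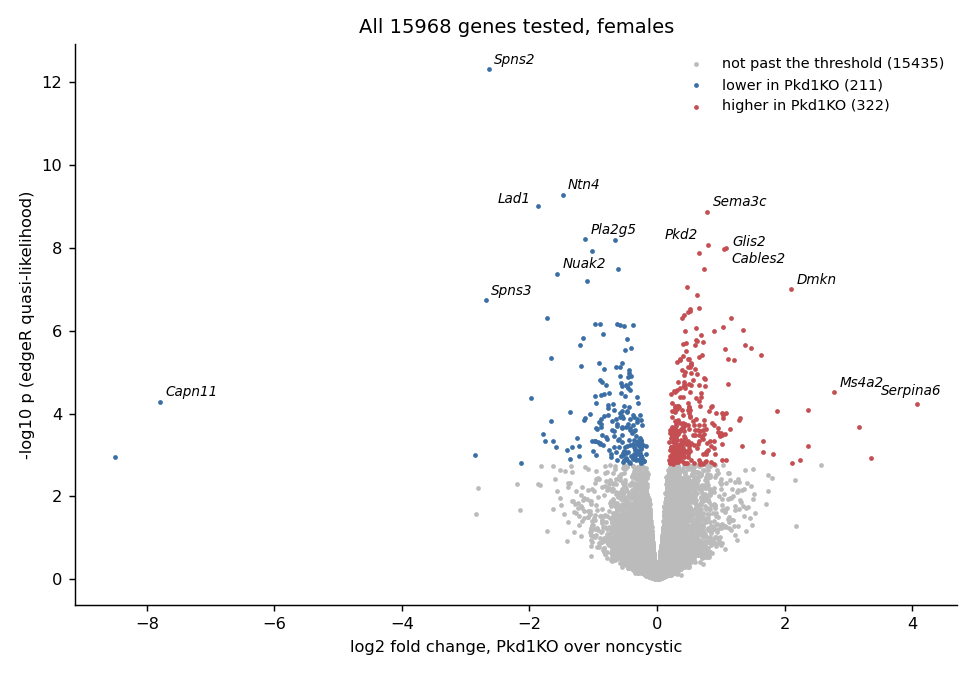
Each point is 1 of the 15968 genes tested, with the log2 fold change of Pkd1KO over noncystic females on the x axis and minus log10 of the unadjusted p of the edgeR quasi-likelihood test on the y axis. Red points (322) were called higher and blue points (211) lower. Spns2 stands above all others at -2.64, and Sema3c and Pkd2, uppermost on the right, changed by 0.79 and 0.80.

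The promoters of the leading genes are printed first, since the changes below are changes of RNA and a transcription factor, Glis2, is among them. Each window holds 250 bases before and 50 after the RefSeq start on GRCm38.p6, and 406 of 532 called gene symbols had an entry, though Glis2 and Nuak2 are named only. The 2 genes with the smallest p in each direction are shown.
Sema3c (higher, chr5:17574566-17574865, plus strand): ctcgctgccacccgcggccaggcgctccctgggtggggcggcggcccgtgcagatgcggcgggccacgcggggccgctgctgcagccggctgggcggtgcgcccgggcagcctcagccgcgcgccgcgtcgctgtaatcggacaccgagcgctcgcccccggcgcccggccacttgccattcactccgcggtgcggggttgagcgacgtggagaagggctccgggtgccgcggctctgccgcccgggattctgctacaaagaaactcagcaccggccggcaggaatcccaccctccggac
Pkd2 (higher, chr5:104459207-104459506, plus strand): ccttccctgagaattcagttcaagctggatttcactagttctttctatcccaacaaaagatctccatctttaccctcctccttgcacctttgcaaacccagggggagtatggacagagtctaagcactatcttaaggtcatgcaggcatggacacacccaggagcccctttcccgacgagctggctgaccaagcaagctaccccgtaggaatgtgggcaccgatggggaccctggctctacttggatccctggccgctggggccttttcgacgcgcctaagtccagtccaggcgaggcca
Spns2 (lower, chr11:72474978-72475277, minus strand): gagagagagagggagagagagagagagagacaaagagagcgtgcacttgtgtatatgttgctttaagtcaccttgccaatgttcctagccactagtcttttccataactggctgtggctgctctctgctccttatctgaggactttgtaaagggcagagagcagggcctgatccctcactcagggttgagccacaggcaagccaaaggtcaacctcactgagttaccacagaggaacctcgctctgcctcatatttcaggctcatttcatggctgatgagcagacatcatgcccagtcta
Ntn4 (lower, chr10:93640799-93641098, plus strand): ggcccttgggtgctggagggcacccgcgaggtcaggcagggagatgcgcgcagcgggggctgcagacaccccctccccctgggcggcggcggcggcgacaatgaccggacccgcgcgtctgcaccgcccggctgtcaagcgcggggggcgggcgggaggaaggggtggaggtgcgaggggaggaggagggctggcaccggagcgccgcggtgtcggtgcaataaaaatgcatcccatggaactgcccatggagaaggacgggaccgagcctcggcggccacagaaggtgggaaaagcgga
All 4 RefSeq starts lie inside the spans that the count annotation gives these genes. That of Spns2 lies well inside its span, far from the upstream end of the gene, so its window is that of an inner start. The others lie near the upstream end. None of these 4 windows held any of the 5 motifs searched on both strands, which were a GLIS core (ACCCCCCA), a GLI site (GACCACCCA), an HNF1 partial site (GTTAAT), an AP-1 site (TGACTCA) and a CREB site (TGACGTCA).

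A gene was counted as holding a motif if any of its promoter entries held it. The GLIS core was found in 224 of 12360 tested genes with an entry (1.81%). It was found in 2 of 236 such genes higher in Pkd1KO (0.847%) and in 8 of 170 lower (4.71%). A pair of lower genes that hold it is shown, picked after their values were seen, with the core in capitals.
Pcolce2 (lower, chr9:95637378-95637677, plus strand): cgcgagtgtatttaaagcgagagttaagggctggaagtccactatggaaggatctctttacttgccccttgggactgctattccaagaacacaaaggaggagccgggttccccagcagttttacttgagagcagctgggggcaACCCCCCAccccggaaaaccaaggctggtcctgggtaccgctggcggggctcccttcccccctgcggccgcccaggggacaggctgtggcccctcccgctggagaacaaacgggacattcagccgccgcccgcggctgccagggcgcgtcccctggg
Sv2a (lower, chr3:96180977-96181276, plus strand): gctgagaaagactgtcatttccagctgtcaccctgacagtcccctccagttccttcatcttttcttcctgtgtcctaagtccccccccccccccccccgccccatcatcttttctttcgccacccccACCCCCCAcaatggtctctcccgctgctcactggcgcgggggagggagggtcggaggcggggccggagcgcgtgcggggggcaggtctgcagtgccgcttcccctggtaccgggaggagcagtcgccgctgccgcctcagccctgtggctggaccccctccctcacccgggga
Pcolce2, an enhancer of procollagen processing, went from 7.60 ± 1.56 CPM (SD, n = 7) to 4.03 ± 0.71 (n = 8), a log2 fold change of -0.92 (adjusted p = 0.00139). Sv2a, a synaptic vesicle protein, went from 32.9 ± 2.33 to 23.4 ± 3.57 CPM, a log2 fold change of -0.49 (adjusted p = 0.00309). The GLI site was in 28, 1 and 0 of all, higher and lower genes with an entry (0.227%, 0.424% and 0%), and the HNF1 partial site in 6.19%, 5.93% and 8.24%. The AP-1 site was in 4.98%, 6.36% and 3.53%, and the CREB site in 3.17%, 1.27% and 2.94%. These are matches of letters in 300 bases and not sites known to be bound.

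Among genes higher in Pkd1KO, the smallest p belonged to Sema3c, which encodes a secreted semaphorin, a guidance signal for cells and axons (chromosome 5, 17574281 to 17730268). Its lowest, median and highest levels were 26.1, 32.9 and 37.7 CPM in noncystic and 51.0, 55.5 and 58.4 CPM in Pkd1KO mice, a log2 fold change of 0.79 (SE 0.0677, adjusted p = 5.36e-06). All 8 Pkd1KO libraries lay above all 7 noncystic ones, although the noncystic group's highest value was that of replicate 5. Pkd2, the gene of the channel that pairs with polycystin-1 (chromosome 5, 104459450 to 104505819), had 231, 293 and 317 CPM in noncystic and 437, 486 and 574 CPM in Pkd1KO mice. The log2 fold change was 0.80 (SE 0.0777, adjusted p = 1.84e-05), and the groups lay far apart. Thus RNA for the partner of the deleted gene was higher in all 8 deleted kidneys.

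Glis2 (chromosome 16, 4594713 to 4624924) had 154, 209 and 282 CPM in noncystic and 388, 447 and 543 CPM in Pkd1KO mice. The log2 fold change was 1.07 (SE 0.106, adjusted p = 1.84e-05), and again every Pkd1KO library lay above every noncystic one, of which the library labelled replicate 5 was the highest. Of the exon bases of Glis2, 13.4% are shared with Pam16, a mitochondrial import gene that was also called, at 26.3 ± 1.84 against 35.2 ± 1.97 CPM (log2 fold change 0.42, adjusted p = 0.00028), and the sources used here do not give how strand and shared bases were counted. Cables2, a relative of a regulator of cyclin-dependent kinases, had 15.8, 22.2 and 26.1 CPM in noncystic and 39.0, 44.5 and 55.2 CPM in Pkd1KO mice, a log2 fold change of 1.05 (SE 0.104, adjusted p = 1.84e-05). In both genes the highest noncystic library was well under the lowest Pkd1KO one.

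The other 8 leading genes that rose had various roles. Dmkn, which encodes dermokine, a secreted epithelial protein, had the largest fold of the 12, from 0.0964 to 0.37 CPM in noncystic to 0.694 to 1.30 CPM in Pkd1KO mice (log2 fold change 2.10, adjusted p = 9.21e-05). The cytoskeleton was represented by Arpin, an inhibitor of the Arp2/3 actin nucleator, from 41.3 ± 4.55 to 64.8 ± 3.76 CPM, and by Cdc42bpa, a kinase that responds to Cdc42, from 234 ± 27.9 to 360 ± 26.3 CPM. Metabolic enzymes were Hsd17b11, a dehydrogenase of lipid droplets, from 69.2 ± 5.65 to 115 ± 14.3 CPM, Impa1, an inositol monophosphatase, from 55.8 ± 6.00 to 80.1 ± 5.18 CPM, and Gcsh, a part of the glycine cleavage system, from 198 ± 15.7 to 284 ± 24.3 CPM. Ptpdc1, a phosphatase implicated in cilia, rose from 46.6 ± 5.70 to 73.6 ± 7.92 CPM, and Slc35e2, a member of a family of transporters, from 31.8 ± 1.92 to 44.0 ± 2.98 CPM. In all 12 leading genes that rose the groups did not overlap, beside 1.12% of all genes tested, and each was still called after any 1 library was left out. Since the 12 were picked by smallest p in this same comparison, both traits follow largely from that choice.

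The smallest p of all belonged to Spns2, the exporter of the lipid signal sphingosine-1-phosphate (chromosome 11, 72451638 to 72489904). It had 97.9, 113 and 136 CPM in noncystic and 11.7, 17.5 and 26.4 CPM in Pkd1KO mice, a fold of 0.161 and a log2 fold change of -2.64 (SE 0.139, adjusted p = 7.89e-09). The groups lay far apart, and Pkd1KO replicate 3, whose Pkd1 level was like that of noncystic mice, had the highest of the Pkd1KO values, still under the noncystic range. Spns3, a related gene that begins next to Spns2 on the same chromosome (72494919 to 72550506), went from 1.28, 1.90 and 4.27 CPM to 0.0553, 0.365 and 0.472 CPM, a log2 fold change of -2.68 (adjusted p = 0.000155). Both members of the pair were thus lower in every Pkd1KO library than in any noncystic one.

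Ntn4 and Lad1, which encode the basement membrane component netrin-4 and ladinin-1, an anchoring filament protein, also fell. Ntn4 (chromosome 10, 93640681 to 93747207) had 47.6, 56.5 and 89.9 CPM in noncystic and 18.8, 22 and 26.9 CPM in Pkd1KO mice (log2 fold change -1.48, SE 0.12, adjusted p = 4.15e-06). Lad1 (chromosome 1, 135818598 to 135833342) had 158, 203 and 378 CPM in noncystic and 49.99, 68.1 and 75.0 CPM in Pkd1KO mice (log2 fold change -1.87, SE 0.158, adjusted p = 5.33e-06). Neither gene's groups overlapped, and the library labelled noncystic replicate 5 was the lowest noncystic library for both.

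A pair of neighbours on chromosome 1 fell as well. Nuak2, a kinase of the AMPK family (132316126 to 132333488), had 93.2, 139 and 172 CPM in noncystic and 32.3, 40.5 and 67.5 CPM in Pkd1KO mice, a log2 fold change of -1.56 (SE 0.169, adjusted p = 4.78e-05). Klhdc8a, a kelch domain gene that ends before Nuak2 begins (132298626 to 132307357), went from 50.3, 68.0 and 82.2 CPM to 28.6, 32.2 and 39.5 CPM, a log2 fold change of -1.02 (adjusted p = 1.92e-05). The groups of each were apart. Lipid and actin genes were among the leading ones too, with lower levels in Pkd1KO: Pla2g5, a secreted phospholipase, at 17.9 ± 3.01 against 8.15 ± 1.13 CPM, Pcyt2, of phosphatidylethanolamine synthesis, at 91.3 ± 6.76 against 60.0 ± 5.86 CPM, Mogat2, an acyltransferase of glyceride synthesis, at 9.80 ± 1.74 against 4.58 ± 0.723 CPM, and Shroom4, an actin-binding protein, at 176 ± 17.9 against 112 ± 6.13 CPM. Of the 12 leading genes that fell, likewise picked by smallest p, 11 had groups that did not overlap. All 12 were called after any 1 library was left out, and both traits again follow largely from the choice.

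**Figure D2:**
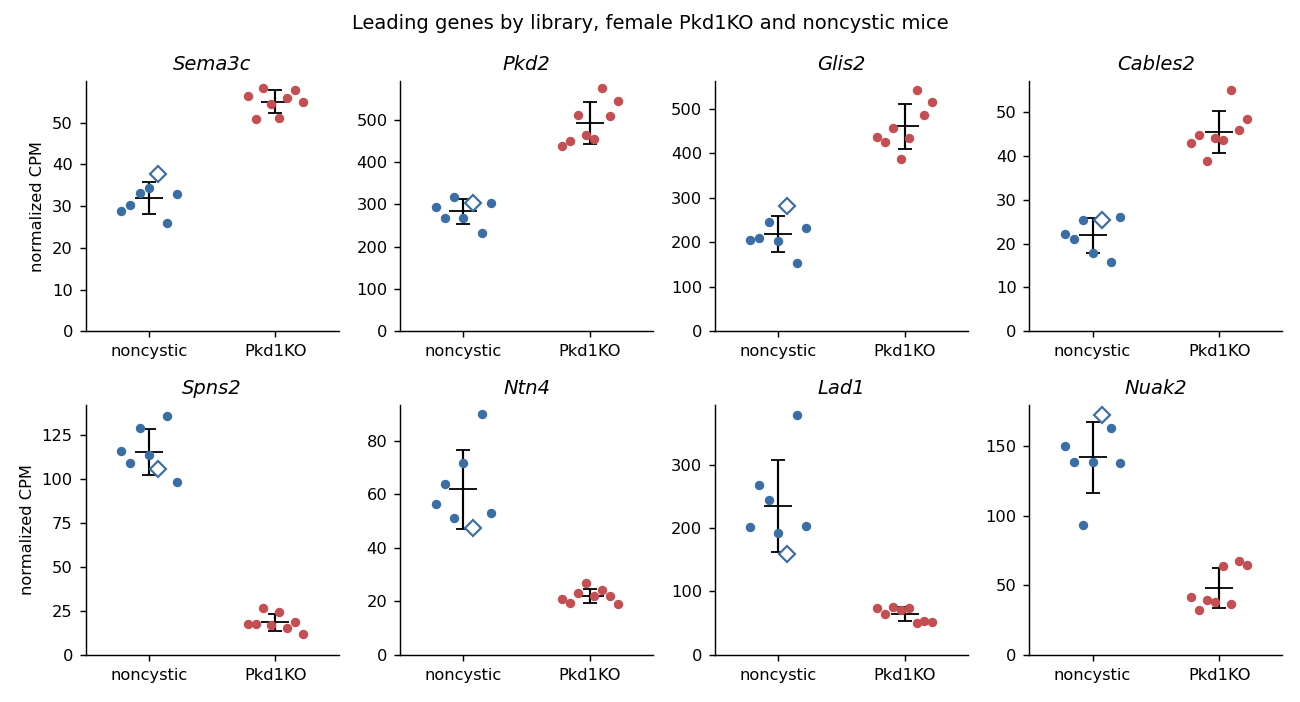
Normalized CPM in each of the 7 noncystic (blue) and 8 Pkd1KO (red) female libraries for 4 leading genes of each direction, with the mean and SD as black bars. The open diamond is the library labelled noncystic replicate 5. In all 8 genes the groups are apart, for example 154 to 282 CPM against 388 to 543 CPM for Glis2.

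By fitted fold, the largest increase among genes of at least 1 CPM was that of Serpina6, the plasma carrier of glucocorticoids, which had 2.10, 6.93 and 14.8 CPM in noncystic and 14.6, 57.0 and 574 CPM in Pkd1KO mice (log2 fold change 4.08, adjusted p = 0.00664). Its range in Pkd1KO was set by replicate 4 at 574 CPM, with the next library at 118 CPM, and the lowest Pkd1KO value lay just within the noncystic range. Mybl2, a transcription factor of dividing cells, had 1.13 to 3.28 CPM in noncystic and 1.84 to 15.4 CPM in Pkd1KO mice (log2 fold change 1.67, adjusted p = 0.0227). Scrg1, named for its response in scrapie, and Ifi44l, an interferon-induced gene, had log2 fold changes of 1.82 and 1.67 (adjusted p = 0.0351 and 0.032), and the groups of all of these overlapped. Ifi44l was not called without the library labelled noncystic replicate 5 (adjusted p = 0.0516). Among genes that fell, those with larger fitted folds than Ache were Spns2 and Spns3, both described above, and Capn11, described with the males. Ache, acetylcholinesterase, went from 0.473, 1.52 and 2.97 CPM to 0.103, 0.39 and 0.695 CPM (log2 fold change -1.97, adjusted p = 0.00497).

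Of the 12 genes that the study itself singles out, 8 were higher, 3 were lower and 1 was not called by edgeR. The study chose these genes with these samples among its data, so their direction here is not independent evidence. Besides Pkd2, Glis2, Cables2, Ptpdc1, Spns2, Ntn4 and Lad1, the list held Anks3, a partner of nephronophthisis proteins, which rose from 41.0 ± 2.71 to 53.7 ± 2.79 CPM (log2 fold change 0.39, adjusted p = 0.000295). Chpf, of chondroitin sulfate synthesis, rose from 16.4 ± 3.45 to 30.4 ± 4.63 CPM, the tetraspanin Tspan5 from 34.4 ± 3.39 to 52.6 ± 7.33 CPM, and Rab23, a small GTPase that restrains hedgehog signalling, from 20.3 ± 2.15 to 28.7 ± 2.86 CPM. Tmem67, a transition zone protein of the cilium, stood at 5.53 ± 0.337 against 4.50 ± 0.46 CPM (log2 fold change -0.30), with an adjusted p of 0.0533 in edgeR, which misses the threshold, and of 0.00411 in DESeq2 and 0.0304 in voom, which pass it.

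Of 43 tested genes of intraflagellar transport and the BBSome, the machines that carry cargo within cilia, Ift80 was called higher and Kif17 lower (4.65%, beside 3.34% of all genes tested), with a median log2 fold change of 0.02. Ift80 lay at 24.1 to 25.8 CPM in noncystic and 26.4 to 32.5 CPM in Pkd1KO mice, apart but by little (log2 fold change 0.22, adjusted p = 0.0205). Of 37 genes of the transition zone and ciliopathies, Ptpdc1, Anks3 and Rab23 were higher and Tulp3, an adaptor that brings membrane proteins into cilia, was lower at 58.6 ± 4.87 against 48.2 ± 4.62 CPM (adjusted p = 0.0262), which makes 10.8% of the list, with a median of -0.03. Ptpdc1, Anks3 and Rab23 are among the genes the study chose with these samples among its data, so this share is not independent evidence. Among 25 genes of polycystic and related kidney disease, Pkd2 and Muc1, a mucin mutated in tubulointerstitial disease, were higher and 0 were lower (8%), with a median of 0.04. Pkd2 is likewise one of the genes the study chose. Pkhd1, the gene of recessive polycystic kidney disease, had 298 to 352 CPM in noncystic and 286 to 495 CPM in Pkd1KO mice and was not called (adjusted p = 0.191).

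Of 19 hedgehog and Glis factors, edgeR called Glis2, DESeq2 called 1 and voom called 2. Unadjusted p under 0.05 was reached by 5, among them the ligand Shh at 0.695 to 1.71 against 1.14 to 2.71 CPM (log2 fold change 0.58, adjusted p = 0.139) and the receptor partner Gas1 at 23.1 to 32.4 against 29.1 to 39.6 CPM (0.22, adjusted p = 0.128). Glis3, its relative, stood at 228 to 281 against 221 to 270 CPM (log2 fold change 0.01, adjusted p = 0.98), and Gli1 and Gli3, effectors of hedgehog signalling, had log2 fold changes of 0.13 and 0.17 (adjusted p = 0.858 and 0.711). The ranges of these genes overlapped.

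Of 14 tested sphingosine-1-phosphate genes 21.4% were called, beside 3.34% of all genes tested, and in both directions. The list was chosen with earlier results of these data known, and its member Spns2 has the smallest p of all genes tested. The share is therefore not independent evidence. Beside the fall of the exporter Spns2, the lyase Sgpl1 rose from 66.7 ± 3.42 to 80.9 ± 6.16 CPM (log2 fold change 0.28, adjusted p = 0.00712), and the phosphatase Sgpp2 from 43.1 ± 6.12 to 61.3 ± 9.31 CPM (log2 fold change 0.51, adjusted p = 0.00719). Both enzymes remove sphingosine-1-phosphate. The other 11 of the 14 tested genes were not called, among them the receptor S1pr1 (adjusted p = 0.576) and the kinase Sphk1 (adjusted p = 0.942), and the list median was -0.03.

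For the basement membrane and its receptors, 1 of 36 tested genes rose and 2 fell (8.33%, beside 3.34% of all genes tested), with a median of 0.10. The gene that rose was Itgb4, the integrin subunit of hemidesmosomes, at 9.95 ± 0.909 against 13.9 ± 2.74 CPM (adjusted p = 0.0226), and those that fell were Ntn4 and Lad1. Both of these are leading genes of this comparison that the study also names, so this share is not independent evidence either. In chondroitin sulfate synthesis edgeR called Chpf among 22 genes and DESeq2 and voom called 2 each, with a list median of 0.08.

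Of 60 cell cycle genes 8 were called, all higher, beside 3.34% of all genes tested called and 2.02% called higher. A positive log2 fold change was found in 58 of the 60, beside 7942 of all 15968 genes tested. Of 30 tested genes of S phase, Rrm1, Rrm2 and Mcm6 were called higher and 0 lower, and 29 of 30 had a positive log2 fold change, with a median of 0.34. Of 30 genes of the G2 and M phases, Prc1, Kif11, Nuf2, Kif20a and Mki67 were called higher and 0 lower, and 29 were positive, with a median of 0.60 beside -0.00083 over all genes. These are 10% and 16.7% of the lists by edgeR, while DESeq2 called 12 and 18 of the 30 genes each and voom 9 and 6. Rrm1, a subunit of ribonucleotide reductase, had 25.0, 28.5 and 36.3 CPM in noncystic and 36.6, 43.9 and 51.7 CPM in Pkd1KO mice (log2 fold change 0.59, adjusted p = 0.000705), and the replication helicase subunit Mcm6 had 34.6, 38.7 and 44.6 against 46.0, 55.4 and 72.5 CPM (log2 fold change 0.54, adjusted p = 0.00309). In those genes the groups did not overlap. Mki67, which encodes the proliferation antigen Ki-67, had 14.2, 23.3 and 32.0 CPM in noncystic and 20.9, 35.3 and 45.7 CPM in Pkd1KO mice (log2 fold change 0.66, adjusted p = 0.0423), and there the groups did overlap. Mki67 and Rrm2 were not called without the library labelled noncystic replicate 5 (adjusted p = 0.0543 and 0.0672), nor without any of several other single libraries.

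Of 19 p53 targets and kinase inhibitors, Zmat3, an RNA-binding target of p53, and Eda2r, a death receptor, rose (10.5%, beside 2.02% of all genes tested). Zmat3 had 91.5, 100 and 169 CPM in noncystic and 139, 177 and 220 CPM in Pkd1KO mice (log2 fold change 0.69, adjusted p = 0.0049). Eda2r went from 2.50, 3.11 and 5.14 CPM to 3.90, 5.72 and 8.89 CPM (log2 fold change 0.86, adjusted p = 0.0124). In both genes the library labelled noncystic replicate 5 was the one noncystic library within the Pkd1KO range, and without it the adjusted p were 9.5e-05 and 0.0021.

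Signalling lists held 0 to 2 called genes each, beside 3.34% of all genes tested. In the TGF-beta and BMP list of 26 (7.69% called), the mediators Smad4 and Smad2 rose slightly, by 0.21 and 0.20 on the log2 scale (adjusted p = 0.0157 and 0.0171). Among 11 EGF ligands and receptors (9.09% called) Btc, the ligand betacellulin, rose by 0.60 (adjusted p = 0.0155), and among 29 Wnt genes (3.45% called) the secreted Dkk3 rose by 0.80 (adjusted p = 0.0301). Of 30 cyclic AMP genes (3.33% called), the phosphodiesterase Pde8a was lower at 148 ± 14.9 against 124 ± 9.78 CPM (adjusted p = 0.0377). Of 26 interferon-stimulated genes (3.85% called), Ddx58, a sensor of viral RNA, rose by 0.25 (adjusted p = 0.0495), 3 were called without the library labelled noncystic replicate 5, and the list median was 0.21. Of 14 antigen presentation genes (14.3% called), B2m and H2-K1, the chains of class I molecules, rose by 0.45 and 0.40 (adjusted p = 0.0318 and 0.0336), and B2m was not called without that library (adjusted p = 0.0516).

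In 4 signalling and early response lists no gene passed the edgeR test. Of 14 genes of chloride and fluid secretion 2 had an unadjusted p under 0.05, of 25 Hippo and YAP targets 6, of 26 mTORC1 genes 4 and of 19 immediate early genes 3. DESeq2 called 0, 2, 1 and 2 of these, and voom called 0, 2, 0 and 0. The medians were 0.06, 0.08, -0.00061 and 0.15. Without the library labelled noncystic replicate 5, F3 of the Hippo list and Fosl2, an AP-1 factor of the immediate early list, were called, the TGF-beta and BMP list held 3 calls in place of 2, and the Wnt, cyclic AMP, stress response and thin limb lists held 2 each in place of 1.

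Metabolism and transport changed in a few members. Gsta2, Gsta4 and Gpx3, which conjugate glutathione or use it to clear peroxides, fell among 22 genes of oxidative stress defence, and 0 rose. That is 13.6% of the list called lower, beside 1.32% of all genes tested. Gsta2 went from 460 ± 40.7 to 334 ± 43.0 CPM (log2 fold change -0.46, adjusted p = 0.00309), Gsta4 from 168 ± 27.6 to 114 ± 14.9 CPM (-0.56, adjusted p = 0.00416) and Gpx3 from 17860 ± 1770 to 13910 ± 1415 CPM (-0.36, adjusted p = 0.0373). For Gsta2 and Gsta4 the groups did not overlap. Phgdh, which opens serine synthesis, rose from 29.4 ± 5.31 to 45.5 ± 2.60 CPM (log2 fold change 0.63, adjusted p = 0.000627) in a list of 24 stress response genes, of which 23 had a positive log2 fold change, with a median of 0.17. Acads, of short-chain fatty acid oxidation, fell by 0.26 among 30 genes (adjusted p = 0.0115), and Nsdhl, of cholesterol synthesis, rose by 0.27 among 21 (adjusted p = 0.0295; 0.0512 without the library labelled noncystic replicate 5).

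Of 17 genes of glycolysis, 13 of gluconeogenesis and 36 of oxidative phosphorylation, edgeR, DESeq2 and voom called 0, while 2, 1 and 4 had an unadjusted p under 0.05. Their medians were -0.06, -0.02 and -0.06. Of 12 male-biased tubule genes 0 were called by any of these tools (3 with an unadjusted p under 0.05). Of 12 female-biased ones edgeR called Gsta4 lower, while DESeq2 called 3 and voom 2. Most members of both lists had a positive log2 fold change, 10 of the male-biased (median 0.22) and 9 of the female-biased genes (median 0.24).

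Of the tubule segment markers, 3 of 22 for the proximal tubule and 2 of 14 for the distal convoluted tubule fell (13.6% and 14.3%), beside 1.32% of all genes tested. Kl is counted in both lists. Slc13a3, a dicarboxylate carrier, had 348, 402 and 434 CPM in noncystic and 215, 280 and 334 CPM in Pkd1KO mice (log2 fold change -0.55, adjusted p = 0.00139). Miox, which opens inositol breakdown, had 1177, 1423 and 1738 against 731, 936 and 1154 CPM (log2 fold change -0.65, adjusted p = 0.00158). For both genes the groups did not overlap. With Kl, the co-receptor klotho, these were the proximal tubule markers called (13.6%), and the list median was -0.07 with 6 of 22 positive. Lrp2, the endocytic receptor that defines this segment, stood at 4069 to 6123 against 3783 to 6774 CPM (log2 fold change 0.01, adjusted p = 0.984).

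In the distal convoluted tubule Kl and the sodium-calcium exchanger Slc8a1 were lower among 14 markers, with a median of -0.14. Slc8a1 had a mean of 468 ± 88.4 CPM in noncystic and 299.8 ± 89.2 CPM in Pkd1KO mice, with overlapping groups (log2 fold change -0.64, adjusted p = 0.0324). Leaving out the library labelled noncystic replicate 5 raised this count from 2 to 5, adding Calb1, a calcium-binding protein (adjusted p = 0.0141), the transcription factor Emx1 (0.0288) and the sphingomyelin synthase Sgms2 (0.00815). Slc12a3, the thiazide-sensitive cotransporter that defines the segment, was not called (adjusted p = 0.784). In the thick ascending limb Cldn16, a claudin for magnesium, fell by 0.53 (adjusted p = 0.0466) as 1 of 14 markers. In principal cells the water channel Aqp4 was higher as 1 of 16 (log2 fold change 1.01, adjusted p = 0.0423; 0.0695 without that library), and in thin limbs the chaperone Cryab as 1 of 8 (log2 fold change 0.42, adjusted p = 0.0139), though 25.6% of its exon bases are shared with Hspb2. Of 17 intercalated cell markers and 29 nephron transcription factors edgeR called 0 (5 and 7 had an unadjusted p under 0.05), DESeq2 called 1 and 3, and voom 1 and 2. Among 24 genes of tubule injury and dedifferentiation 3 rose (12.5%, beside 2.02% of all genes tested). These 3 included Prom1, a stem cell antigen, and the chemokine Cxcl10, higher by 0.43 and 0.78 (adjusted p = 0.00286 and 0.0311).

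Many of the calls just named lay near the threshold and were lost when 1 library was left out. Below, only the highest adjusted p is given for each gene. For all except Ift80, leaving out another single library lost the call as well. The losses of Mki67, Rrm2, Ifi44l, B2m, Nsdhl and Aqp4 without the library labelled noncystic replicate 5 were therefore not particular to it. The highest adjusted p after leaving out 1 library came without noncystic replicate 6 for Ddx58 (0.113), Aqp4 (0.0944), Muc1 (0.0905), Cldn16 (0.0897), H2-K1 (0.0831), Pde8a (0.0762), Nsdhl (0.0739), Dkk3 (0.0691) and Itgb4 (0.0574). It came without noncystic replicate 2 for Gpx3 (0.0924), Scrg1 (0.0788), Slc8a1 (0.0772), Tulp3 (0.0641), Nuf2 (0.0551) and Mybl2 (0.0548), and without noncystic replicate 4 for B2m (0.0743), Kif20a (0.0705), Cxcl10 (0.0699) and Ifi44l (0.0681). Rrm2 reached 0.0983 without noncystic replicate 3, Kl 0.0664 without noncystic replicate 7, Mki67 0.0891 without Pkd1KO replicate 6 and Ift80 0.0516 without Pkd1KO replicate 8. None of the genes in this paragraph was therefore called in every such fit, while the other genes called in the lists above stayed past the threshold whichever library was left out.

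**Figure D3:**
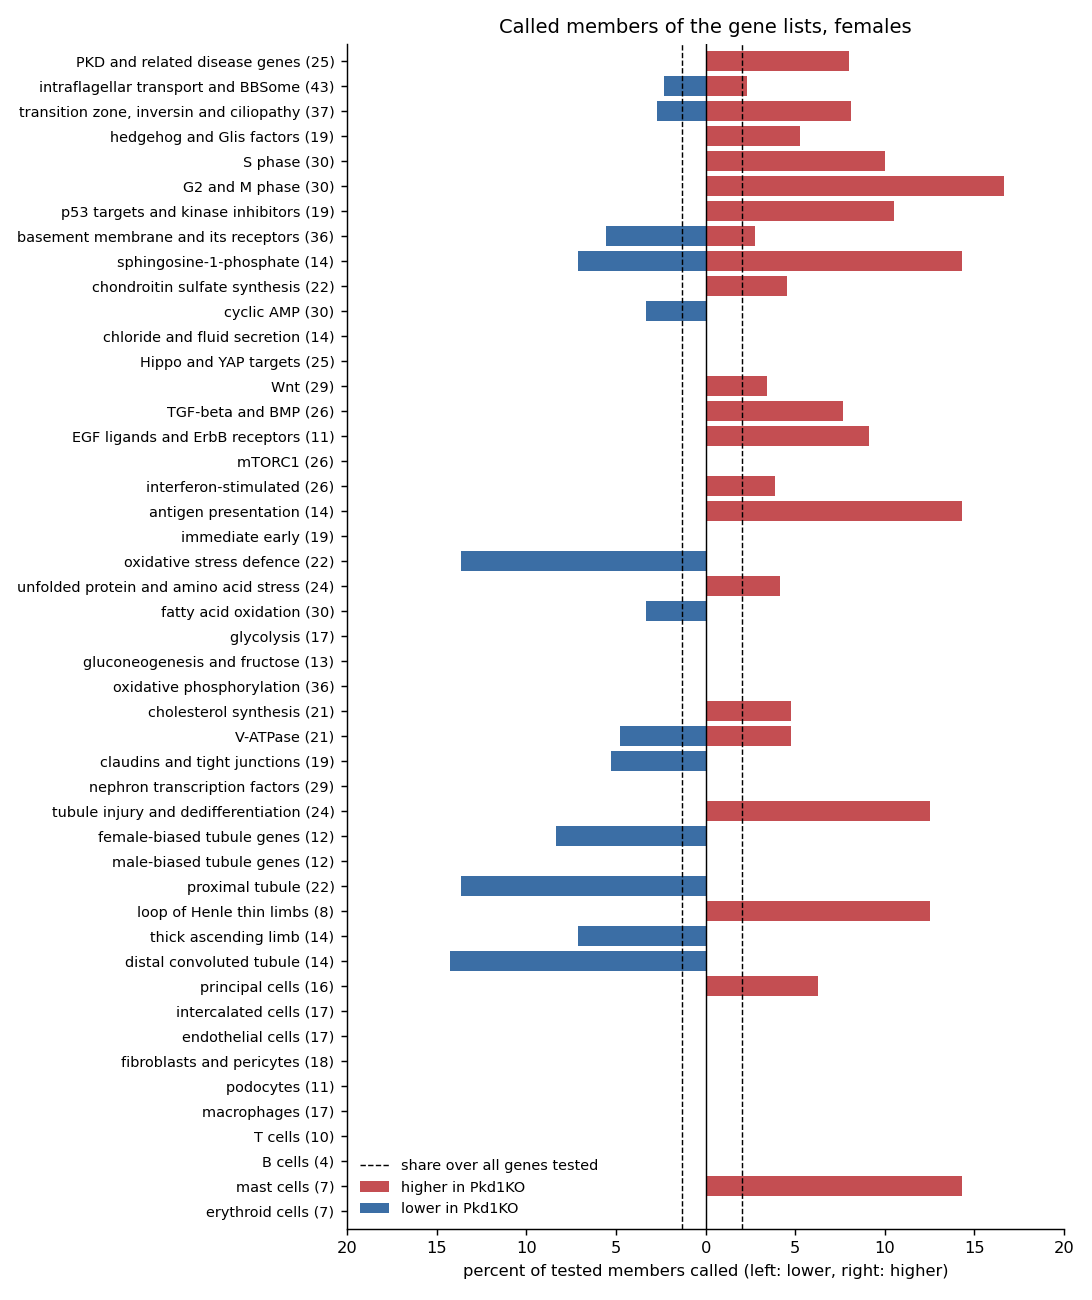
Percent of the tested members of each gene list that were called in females, drawn to the left for lower (blue) and to the right for higher (red) in Pkd1KO, with the number of tested members in brackets. Dashed lines give the share over all genes tested, 1.32% lower and 2.02% higher. The cell cycle bars point right (5 of 30 for the G2 and M phases), those of oxidative stress defence and the proximal tubule point left (3 of 22 each), and lists of other cell types have no bar except mast cells.

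Markers of cells that should lack the tag were measured as well. Summed over 17 endothelial markers the level was 213 to 411 CPM in noncystic and 178 to 398 CPM in Pkd1KO mice. All 17 had a negative log2 fold change, with a median of -0.23, and 0 were called by edgeR or DESeq2 (1 by voom, 1 at an unadjusted p under 0.05). Over 18 fibroblast and pericyte markers the sum was 550.1 to 972 against 387 to 1627 CPM, over 11 podocyte markers 228 to 298 against 246 to 320 CPM, and over 17 macrophage markers 71.4 to 113 against 79.0 to 153 CPM. Each pair of ranges overlapped. In these 3 lists edgeR, DESeq2 and voom called 0, and 0, 0 and 1 had an unadjusted p under 0.05. The defining genes Pecam1 (endothelium) and Adgre1 (macrophages) had 8.02 and 1.93 TPM, a level per transcript length, in Pkd1KO, where Lrp2 had 985.

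T cell markers summed to 3.25 to 4.76 against 3.21 to 6.14 CPM over 10 genes, B cell markers to 1.06 to 4.49 against 1.18 to 2.65 CPM over 4, and erythroid markers to 33.0 to 67.6 against 32.5 to 82.4 CPM over 7. All 3 tools called 0 in these lists, and 1, 0 and 0 genes had an unadjusted p under 0.05. The T cell receptor constant genes and the B cell gene Ms4a1 were not among the genes tested. The part of any of these cells in the results was not tested.

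Of 7 tested mast cell markers, 1 was called (14.3%, beside 3.34% of all genes tested). Ms4a2, a chain of the IgE receptor of mast cells and basophils, had 0.182, 0.332 and 1.84 CPM in noncystic and 1.11, 3.58 and 6.72 CPM in Pkd1KO mice (log2 fold change 2.77, adjusted p = 0.00411). Apart from the library labelled noncystic replicate 5, at 1.84 CPM, all noncystic libraries lay under all Pkd1KO ones, and without it the log2 fold change was 3.55 (adjusted p = 6.79e-05). The sum of 7 mast cell markers was 104 to 185 CPM in noncystic and 140 to 585 CPM in Pkd1KO mice, with Hdc, the histidine decarboxylase, at 16.7 to 83.4 against 38.6 to 495 CPM (adjusted p = 0.18). Kit and Gata2, also in this sum, are listed above under intercalated cells and nephron transcription factors too, so the sum is not particular to mast cells. The mast cell protease Cpa3 was at most 0.0539 CPM in any library, and 5 further markers, Fcer1a, Cma1, Mcpt4, Mrgprb1 and Mrgprb2, were not among the genes tested. Another protease, Tpsb2, stood at 0.17 to 1.25 against 0.21 to 1.411 CPM (log2 fold change 0.56, adjusted p = 0.555), and the library labelled noncystic replicate 5 was the highest noncystic one at 1.25 CPM, with the others at 0.17 to 0.546. Without it the log2 fold change of Tpsb2 was 1.02 (adjusted p = 0.141). The part of mast cells in the rise of Ms4a2 was not tested.

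The share of called genes was higher around Pkd1 itself, which is given as a description with no test. Of 199 genes within 5 Mb of Pkd1 18 were called (9.05%), 3 higher and 15 lower, against 515 of 15769 elsewhere (3.27%), and without the library labelled noncystic replicate 5 there were 16. Atp6v0c, the proteolipid subunit of the vacuolar proton pump (24163866 to 24169702, at -380.1 kb from the start of Pkd1), had 96.5 to 106 CPM in 6 noncystic libraries, 49.1 CPM in the library labelled replicate 5 and 45.3 to 53.7 CPM in Pkd1KO mice. The log2 fold change was -0.90 (adjusted p = 0.000364), and -1.01 (adjusted p = 1.1e-08) without that library. Rnps1, a splicing factor (24414565 to 24425901, at -123.9 kb), had 32.9 to 38.0 CPM in those 6, 23.3 CPM in replicate 5 and 20.5 to 23.2 CPM in Pkd1KO mice (log2 fold change -0.62, adjusted p = 0.000364). Both genes put the library labelled noncystic replicate 5 at or beside the Pkd1KO range.

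Other genes of this region were lower by various amounts. Nhlrc4 (25942233 to 25944961) went from 3.91 ± 1.30 to 1.18 ± 0.372 CPM (log2 fold change -1.73, adjusted p = 0.000295), and 17.2% of its exon bases are shared with Pigq. A930017K11Rik, which lies beside Nhlrc4, went from 15 ± 2.46 to 8.79 ± 2.52 CPM (-0.77, adjusted p = 0.00761), the membrane-shaping Pacsin1 from 1.45 ± 0.289 to 0.741 ± 0.181 CPM (-0.97, adjusted p = 0.00472), and Neurl1b, a ubiquitin ligase of Notch ligands, from 97.6 ± 8.54 to 76.1 ± 8.46 CPM (-0.36, adjusted p = 0.0102). The glutamate receptor Grm4 rose, from 0.40 ± 0.209 to 0.99 ± 0.199 CPM (log2 fold change 1.31, adjusted p = 0.0106). The floxed allele and the chromosome that came with it differ in dose between the groups, so effects of the flanking sequence and of the loss of Pkd1 cannot be told apart in this region.

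**Figure D4:**
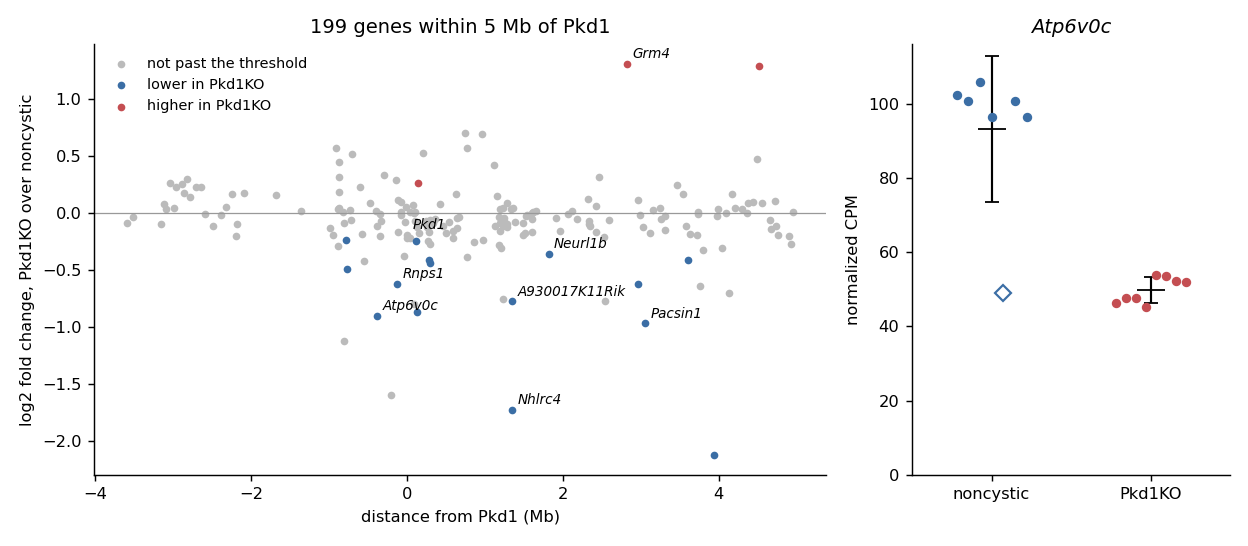
Left, the log2 fold change of Pkd1KO over noncystic females for the 199 tested genes within 5 Mb of Pkd1 against their distance from it in Mb, with called genes in red (3 higher) and blue (15 lower). Right, the normalized CPM of Atp6v0c by library with mean and SD, where the library labelled noncystic replicate 5 (open diamond) lies at 49.1 CPM among the Pkd1KO libraries and the other 6 noncystic ones at 96.5 CPM or more.

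Over all 533 called genes the library labelled noncystic replicate 5 lay in the Pkd1KO range and outside the range of the other noncystic libraries in 114 (21.4%). Pkd1KO replicates 5 and 3 lay on the noncystic side in the like way in 100 (18.8%) and 95 (17.8%), and the other 12 libraries in 3.57% to 11.4%. These 3 libraries thus stood with the opposite group more often than the rest. Without the library labelled noncystic replicate 5, 101 genes became called and 76 were lost. The newly called genes with the smallest p were Bckdhb, of branched-chain amino acid breakdown, where that library had 109 CPM and the other noncystic ones 56.5 to 71.4 CPM (adjusted p from 0.0985 to 0.000454), Dab1, an adaptor of reelin signalling (0.0714 to 0.00183), F3, tissue factor (0.0862 to 0.00229), the spindle gene Psrc1 (0.0677 to 0.00614) and Sgms2 (0.104 to 0.00815). The lost genes with the smallest p, Lyrm9, Sh2d6, Hfe, Xntrpc and Kif5a, moved only from 0.0252 to 0.0268 to between 0.0505 and 0.0543.

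Males of the same genotypes, age and treatment, 7 Pkd1KO and 8 noncystic, gave a separate set of samples. There 1008 of 15991 genes were called (6.3%), 648 higher and 360 lower. Of the 533 female calls 294 were also called in males with the same sign (55.2% of the female and 29.2% of the male calls), 191 of them higher and 103 lower. In 516 of 530 female calls measured in both sexes the sign was the same, and the like share over all genes tested was not counted. All 12 leading genes that rose in females were called in males, among them Glis2 (male log2 fold change 1.22, adjusted p = 1.12e-07), Pkd2 (0.68) and Sema3c (0.70). Of the 12 that fell 10 were called, among them Spns2 at -1.81, Ntn4 at -1.66 and Lad1 at -2.25, and Pla2g5 (-0.62, adjusted p = 0.052) and Klhdc8a (-0.28, adjusted p = 0.344) were not.

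The test of the difference between the female and the male change passed the threshold for 1 of 15828 genes (0.00632%), and 1279 had an unadjusted p under 0.05. The gene was Capn11, a calpain protease, with a female log2 fold change of -7.79 and a male one of 4.47 (difference -12.27, adjusted p = 0.0306). Its female counts were 264, 2, 8, 242, 578, 1 and 3 in the noncystic libraries and 0, 0, 0, 2, 2, 0, 1 and 0 in Pkd1KO. Thus 3 noncystic mice carried nearly all of its 1098 counts, and the others were at or near 0. Without the library labelled noncystic replicate 5, which held 578 of them, no gene passed the test of the difference (lowest adjusted p = 0.0837), nor did any without noncystic replicate 1 or 4 or Pkd1KO replicate 2, 3, 5, 6, 7 or 8 (lowest adjusted p from 0.0592 to 0.0829). Within females alone Capn11 passed with edgeR (adjusted p = 0.00611) and DESeq2 but not with voom (0.273). Klhdc8a, Spns2 and Nuak2 fell more in females at an unadjusted p of 0.000928, 0.00245 and 0.00597, none of which passed after adjustment.

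Cell cycle genes had larger values in males. Over the 60 genes of both cell cycle lists the median log2 fold change was 0.51 in females and 1.40 in males, with 8 called higher in females and 51 in males. In 34 of the 60 the difference between the sexes had an unadjusted p under 0.05, but 0 passed after adjustment over all genes by edgeR, and the lowest adjusted p was 0.265. Aurka, a mitotic kinase, had log2 fold changes of 0.26 in females and 1.45 in males (unadjusted p = 5.02e-05 for the difference in edgeR), and Iqgap3, a scaffold of dividing cells, 0.59 and 2.62 (unadjusted p = 0.00014 in edgeR). DESeq2 called 6 genes as differing between the sexes, namely Aurka, Iqgap3, Cdca3, Capn11, Farp2 and Tle2, of which Aurka, Iqgap3 and Cdca3 are genes of dividing cells. Macrophage markers also had a higher male median, 1.65 against 0.04, and 12 of 17 had an unadjusted p under 0.05 for the difference. Their part in the result was not tested.

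**Figure D5:**
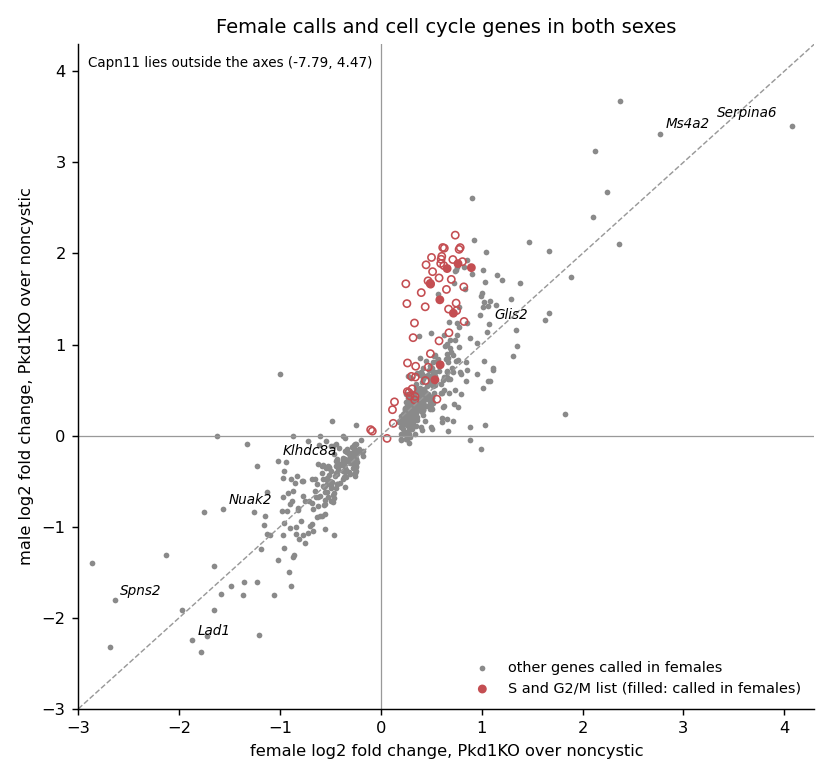
Log2 fold change of Pkd1KO over noncystic in females (x axis) and males (y axis) for genes called in females (grey) and for the 60 genes of the S and G2/M lists (red circles, filled where called in females). The dashed line marks equal change, and most grey points lie along it. Most red circles lie above it, with medians of 0.51 in females and 1.40 in males.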

How the data were processed

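Ribosome-bound RNA of tagged tubule cells was sequenced after ribosomal RNA depletion. Per the submitters' processing notes and the study's methods, the authors used fastp 0.20.0 for trimming, STAR 2.7.9 for alignment to GRCm38 and featureCounts 2.0.0 for counting per gene. The deposited counts are whole and unnormalized. The deposited TPM values were scaled by the authors per length and library size. The strand setting and the treatment of reads shared by overlapping genes are not given in the sources used here. Every column carried a sample (0 without one).

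The genes tested were the 15968 protein-coding genes of the TPM table for females, which all have at least 6 counts in at least 20% of libraries. Counts of the 8 Pkd1KO and 7 noncystic females were fitted by themselves with edgeR 4.0.16 (TMM scaling, quasi-likelihood test, two-sided, R 4.3.3), with Benjamini-Hochberg adjustment over all genes and a threshold of 0.05. Males were fitted in the same way, and the difference between the sexes as an interaction over 30 mice. The step was tested on simulated data. Alternatives used DESeq2 1.42.0 and limma-voom 3.58.1, other scalings, filters and gene sets, a replicate block and each library left out. Further ones were edgeR's newer quasi-likelihood method and a fit that also held the females labelled for loss of Pkd1 and Kif3a. The lowest depth was 80874556 counts in a library, and precision is given as the spread between mice, which holds the counting error.

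Named genes were Pkd1 and Kif3a, the 12 called genes with the smallest p in each direction, the 6 with the largest fold at 1 CPM or more, genes the study names, called members and defining markers of 48 gene lists, the 8 of lowest p among genes within 5 Mb of Pkd1, the 5 gained and 5 lost without noncystic replicate 5, the 8 shared best by the sexes and the 5 that differed most between them. Members and lists were chosen with earlier results of these data known. Promoter sequences are from RefSeq. A few list members are not reported here.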

Additional observations from a re-analysis of the deposited data

Results flagged for a closer look

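Samples far from the rest of their group were looked for in the female levels (CPM) of the named genes. In 30 of 200 groups (15%) the highest or lowest library stood apart by Dixon's criterion, where chance gives about 1 in 20. The library labelled noncystic replicate 5 accounts for 12 of these, in part because genes newly called without it were among those examined. It was lowest for Kif3a at 6.93 (nearest 24.0), Atp6v0c at 49.1 (96.5), Rnps1 at 23.3 (32.9) and Sgms2 at 30.3 (37.8). It was highest for Ms4a2 at 1.84 (0.405), Zmat3 at 169 (115), Eda2r at 5.14 (3.44), Bckdhb at 109 (71.4), Dab1 at 24.3 (14.7), F3 at 25.1 (17.7), Psrc1 at 5.46 (3.26) and Iqgap3 at 2.98 (2.16).

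Among other noncystic libraries, replicate 1 was highest for Gsta2 at 548 (nearest 462) and Pde8a at 180 (149), replicate 6 for Spns3 at 4.27 (2.27) and Cldn16 at 16.9 (11), and replicate 7 for Aqp4 at 54.0 (34.8). In Pkd1KO, replicate 4 was highest for Serpina6 at 574 (118), Dkk3 at 37.6 (23.3), Slc8a1 at 504 (306) and Tle2 at 19.5 (11.1), and lowest for Arpin at 55.8 (64.7). Replicate 3 was highest for Sgpp2 at 82.4 (64.3), A930017K11Rik at 14.5 (9.71) and Sgms2 at 37.4 (34.7). Replicate 8 was highest for Pla2g5 at 10.7 (8.48) and Aqp4 at 163 (72.8), and lowest for Spns3 at 0.0553 (0.293). Replicate 6 was highest for Chpf at 40.2 (32.2), and replicate 5 was lowest for Btc at 8.03 (12.2).

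Capn11 was set apart by the test of the difference between the sexes, with a female log2 fold change minus the male one of -12.27.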

How the results depend on the processing

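The 533 female calls became 962 with DESeq2, 809 with voom and 294 with a replicate block, and 349 (without noncystic replicate 6) to 676 (without Pkd1KO replicate 5) with 1 library left out, and 302 of the 533 were called in every such fit. DESeq2 called 529 of the 533 and voom 510. With other scalings, filters and gene sets the count stayed between 417 and 532. It was 571 with the newer quasi-likelihood method, the only one of these settings chosen after seeing the data. When the females labelled for loss of Pkd1 and Kif3a joined the fit, it was 594. The 18 calls near Pkd1 became 8 with the replicate block and 13 to 17 with 1 library left out. The 294 calls shared with males became 526 with DESeq2, 154 with the block and 226 to 373 with 1 library left out, and the 1 gene that differed between the sexes became 6, 0 and 0 to 2. Pkd1 stayed between -0.30 and -0.18 and Kif3a between 0.12 and 0.32 with 1 library left out. Replicate numbers are only shared numbers here: the correlations of same-numbered libraries ran from -0.09 to 0.17, and no library matched its own number best, so the block was not used above. Of 88 called named genes, 50 were called in every setting, 38 were not, and 0 turned direction. The cause of these shifts was not tested.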
